A study of Rattus norvegicus with 10 samples.

Results

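In rats made epileptic by stimulation of the amygdala and in their controls, 279910 of the 571404 autosomal regions in the methyl-capture table (48.99%) held fewer than 70 tags summed over the 8 rats that the labels do not mark as discarded. These low-count regions were selected on measured values, the raw counts of both groups added together, and they fall below the 50th percentile at which regions were left out before testing. They are described here by pooling their tags in fixed windows of 1 Mb and over whole chromosomes. The other 291494 autosomal regions, with 70 tags or more, are called high-count regions and serve as the comparison, and the whole table, chromosome X included, held 574544 regions.

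The control rats were sham operated adult male Sprague-Dawley rats that carried an electrode in the left lateral amygdala and were not stimulated. The SE rats had the same electrode and were stimulated through it to evoke status epilepticus (SE), which was stopped with diazepam, and spontaneous seizures were recorded by video EEG. Tissue with CA3 and the dentate gyrus was cut from the left hippocampus 3 months after SE, and DNA of each rat gave 1 library. Control rats 1, 3, 4 and 5 were compared with SE rats 6, 8, 9 and 10, whereas control rat 2 and SE rat 7 are marked as discarded and enter only where they are named. The tissue piece is a mixture of neurons and glia, so that a change in methylation within cells and a change in the mixture of cells cannot be told apart.

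Methyl-capture uses a methyl-CpG binding domain protein to pull down fragments of double-stranded DNA that carry methylated CpG sites, and the captured fragments are sequenced from their ends. A tag count therefore rises both with the methylation of a region and with the number of CpG sites in it. Most of a mammalian genome is poor in CpG sites and largely methylated outside CpG islands, so a methyl-capture library spreads a part of its tags thinly over many regions with few tags each. A filter on low counts removes regions with few tags. Whether the low-count regions described here are poor in CpG sites was not tested.

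The low-count regions were short, with a median length of 363 bp (interquartile range 294 to 433), against 591 bp (486 to 763) in high-count regions. Their median count over the 8 libraries was 50 (interquartile range 39 to 60), or 6.25 tags per library against 12.1 in high-count regions. Per kb of region the median was 16.8 tags per library in low-count and 20.9 in high-count regions, so the low-count regions differed more in length than in tags per length. In all they covered 103 Mb of the RN4 genome and the high-count regions covered 197 Mb. The limit of 70 cut through a continuum. The 6950 regions with a summed count of 69 had a median length of 446 bp, and the 6826 regions with a summed count of 70 had 447 bp.

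Low-count regions were mixed with high-count regions along the chromosomes. The nearest other region lay at a median distance of 792 bp, against 706 bp for high-count regions, and 50.4% of the neighbours of a low-count region were low-count themselves, against 47.6% of those of a high-count region. They were more frequent where regions were sparse. Among regions with at most 4 others no more than 50 kb away in either direction 57.1% were low-count, and among those with 25 or more the share was 46.8%. Between chromosomes the share ran from 43.5% on chromosome 12 to 51.3% on chromosome 2.

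At 0 to 69 tags over 8 libraries single regions were close to the limit of counting. In 23256 low-count regions (8.31%) at least 1 of the 8 libraries had 0 tags, and in 2 regions all 8 did. The share of low-count regions with 0 tags ran from 0.742% to 1.63% over the 8 libraries. Total counts of these libraries ran from 5499370 to 7179519, without a separation of the groups. The 2 discarded rats stood apart. Control rat 2 had a total of 7154696 tags and 0 tags in 3.60% of the low-count regions, while SE rat 7 had 14655629 tags and 0 tags in 6.63% of them. In high-count regions SE rat 7 had 0 tags in 13.1% and control rat 2 in 0.112%. The 8 libraries had 0 tags in at most 0.0223% of them. High-count regions were selected on the counts of these 8 libraries, which makes 0 tags rare there by the rule.

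The first comparison asks whether tags moved between low-count and high-count regions in SE rats. The share of autosomal tags that fell in low-count regions was 28.6%, 28.6%, 28.7% and 28.5% in control rats 1, 3, 4 and 5. It was 27.9%, 28.3%, 28.5% and 27.9% in SE rats 6, 8, 9 and 10. The groups did not overlap, but the distance between them was small, since control rat 5 at 28.4715% and SE rat 9 at 28.4684% nearly touched. Group means were 28.6 ± 0.112% for control and 28.2 ± 0.286% for SE rats (SD, n = 4 each), a difference of -0.448 percentage points (p = 0.0286 in a two-sided exact permutation test, where 4 against 4 rats cannot give less; 0.0476 after Benjamini-Hochberg adjustment over 5 shares). The direction turned when the discarded rats were included, with a difference of 1.55 percentage points (exact permutation test, p = 0.556), because SE rat 7 had 36.1% of its tags in low-count regions and control rat 2 had 26.6%. Without control rat 1, 3, 4 or 5 the difference lay between -0.405 and -0.494 and p between 0.0571 and 0.114 in the same exact test. The low-count regions were chosen on these same raw counts, so the test is not independent of the rule. A library with more tags weighs more in the raw sum. Control rat 5 and SE rat 10 had the most tags and the lowest share of their groups. With the limit set on counts scaled to library totals, the difference was -0.391 percentage points (exact permutation test, p = 0.0286).

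The low-count regions were also divided into classes of summed count, and whether the classes differ from one another was not tested. The classes, too, were set on the raw counts from which the shares are taken. Regions with 10 to 29 tags, 27594 in number, held 1.36 ± 0.0203% of autosomal tags in control and 1.30 ± 0.0235% in SE rats (SD, n = 4 each; p = 0.0286 and adjusted p = 0.0476, two-sided exact permutation test). The 107592 regions with 30 to 49 tags held 9.24 ± 0.00465% and 9.07 ± 0.0894% (SD, n = 4 each; exact permutation test, p = 0.0286, adjusted p = 0.0476). For the 143992 regions with 50 to 69 tags, the class nearest to the limit, the means were 18.0% and 17.8%. The difference of -0.211 percentage points did not pass (exact permutation test, p = 0.143). It was the largest of any class in percentage points, in the class that held the most tags. Relative to the control mean it was the smallest. The 732 regions with at most 9 tags held about 0.01% of the tags and did not pass the test either (exact permutation test, p = 0.114).

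SE rat 7 was unlike every other library in the low-count regions. In the regions with at most 9 tags over the 8 libraries used it had a mean of 15.6 tags per region, where those 8 libraries had between 0.762 and 1.03. The mean was 17.3 tags per region in the class of 10 to 29, 18.6 in the class of 30 to 49 and 19.2 in the class of 50 to 69, against at most 3.35, 5.98 and 8.66 in the 8 libraries. Its tags per region thus hardly depended on the class. The classes were set on the summed count of the 8 libraries, which bounds the means of those libraries and makes them rise with class. Control rat 2, also outside that rule, had 1.07, 2.85, 5.43 and 8.48 tags per region in the same classes. Scaled to equal library totals, SE rat 7 was the highest of all 10 libraries in 28.4% of low-count and 20.3% of high-count regions.

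**Figure D1:**
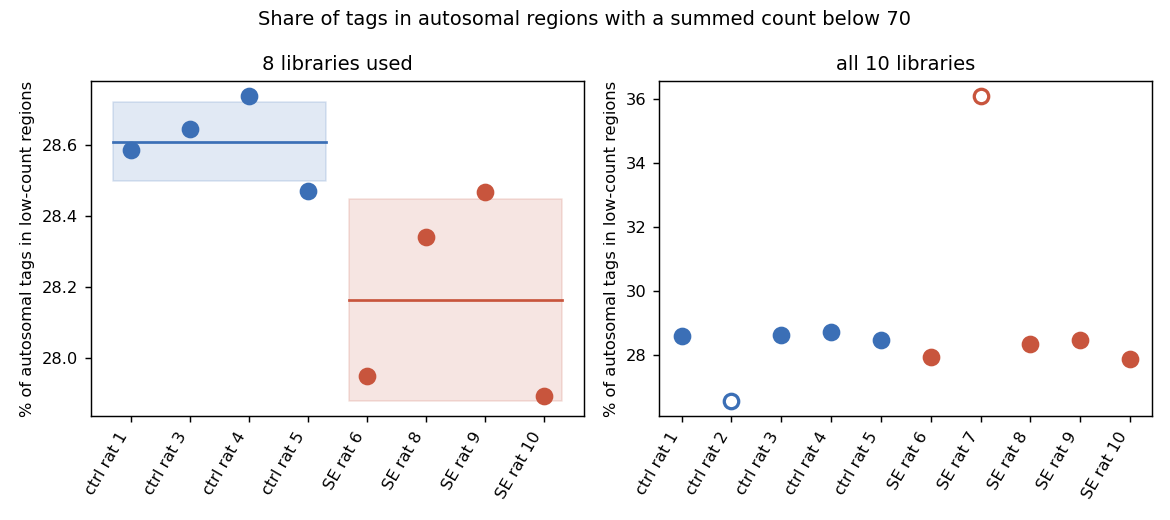
Percent of autosomal tags in regions with a summed count below 70, per rat. Left, the 8 libraries used, with lines at the group means and bands of ± 1 SD (n = 4); right, all 10 libraries, with the discarded rats as open circles. Control rats sit between 28.5% and 28.7% and SE rats between 27.9% and 28.5%, whereas SE rat 7 reaches 36.1%.

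The second comparison pooled the low-count tags in windows of 1 Mb, which raises the count from a median of 50 per region to a median of 5266 per window, from a median of 108 low-count regions. Of 2566 windows tested with edgeR's quasi-likelihood test and TMM normalization, 729 (28.4%) had an adjusted p below 0.05. SE rats were lower in 351 of them (13.7%) and higher in 378 (14.7%). An unadjusted p below 0.01 was reached by 645 windows (25.1%), and in 517 windows (20.1%) no SE rat overlapped any control rat, 260 lower and 257 higher. The differences were modest. The median log2 fold change was -0.28 in the windows that fell and 0.16 in those that rose, and the 5th and 95th percentiles over all windows tested were -0.32 and 0.17.

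The counts of windows called depended on single rats and on the libraries included. Without control rat 1 the number of windows with an adjusted p below 0.05 rose to 1106, and without control rat 4, control rat 5, SE rat 9 or SE rat 10 it was 346, 336, 461 and 298. With all 10 libraries 18 windows were called, 15 lower and 3 higher, and these 18 were all among the 729 and had the same sign. The 2 fits share 8 libraries. When only regions with a summed count below 35 were pooled, 2 windows were called. The balance of the directions moved with the scaling, to 400 lower and 286 higher with low-count totals without TMM, 532 and 183 with totals of all autosomal tags and 627 and 136 with upper-quartile scaling.

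The 5 windows with the smallest p among those lower in SE rats lay on chromosomes 15, 4, 6 and 2. Values are counts per 1e+06 low-count tags of the library after TMM (low-count CPM). In the window of chromosome 15 from 78000001 to 79000000 in RN4, with 38 low-count regions, control rats 1, 3, 4 and 5 had 132, 155, 175 and 172, and SE rats 6, 8, 9 and 10 had 116, 92.5, 92.1 and 104. Every SE rat was below every control rat, with means of 159 ± 19.7 and 101 ± 11.1 (SD, n = 4 each), and the log2 fold change was -0.65 (standard error 0.11; edgeR, adjusted p = 0.00167).

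The window of chromosome 4 from 73000001 to 74000000 had 142, 189, 209 and 197 in control rats and 130, 122, 118 and 108 in SE rats. The groups were again separate, by 142 in control rat 1 against 130 in SE rat 6, and the log2 fold change was -0.63 (standard error 0.11.) The window of chromosome 2 from 67000001 to 68000000 had 124, 149, 165 and 160 in control rats and 109, 94.4, 85.3 and 98.5 in SE rats, with the same log2 fold change of -0.63. Control rat 1 was the control rat nearest to the SE rats in all 3 of these windows. Log2 fold changes were smaller on chromosome 6 from 117000001 to 118000000, at -0.39, and on chromosome 15 from 94000001 to 95000000, at -0.43. These 5 windows were thinly filled, with 64 to 122 regions of the table per Mb. For the discarded rats values are per 1e+06 of their own low-count tags without TMM, in the windows of chromosomes 15 (from 78000001), 4, 6, 2 and 15 (from 94000001). SE rat 7 had 77.0, 88.6, 215, 79.7 and 143 and control rat 2 had 130, 145, 226, 116 and 226. These depend on the total that is chosen, since SE rat 7 had 36.1% of its autosomal tags in low-count regions, more than any other rat.

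The 5 windows with the smallest p among those higher in SE rats lay on chromosomes 12, 1 and 10. In the window of chromosome 12 from 12000001 to 13000000, with 189 low-count regions, control rats had 694, 635, 602 and 640 and SE rats had 741, 742, 789 and 789. The means were 643 ± 38.0 and 765 ± 27.4 (SD, n = 4 each), a log2 fold change of 0.25 (standard error 0.043; edgeR, adjusted p = 0.00167). All 4 SE rats were above the control rats, of which control rat 1 was the highest.

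On chromosome 1 from 80000001 to 81000000 control rats had 600, 506, 527 and 541 and SE rats 627, 624, 672 and 698. This was the largest rise among the windows called, with a log2 fold change of 0.27 and a standard error of 0.048. The others were chromosome 12 from 37000001 to 38000000 and chromosome 10 from 92000001 to 93000000, both with a log2 fold change of 0.25, and chromosome 10 from 14000001 to 15000000 with 0.24. The 5 windows that rose held between 371 and 433 regions per Mb, several times the number in the 5 that fell. Discarded control rat 2, per 1e+06 of its own low-count tags without TMM, was above the 4 control rats used in 4 of the 5, with 763 in the window of chromosome 12 from 12000001, and so went against its group on that scale. SE rat 7, scaled likewise, had 700 there, 653 on chromosome 1 and 585 on chromosome 12 from 37000001. On chromosome 10 it had 653 from 92000001 and 647 from 14000001. The other rats were scaled with TMM, so these ranks depend on the total that is chosen. The adjusted p was 0.00167 in all 10 windows named, and with all 10 libraries the 10 had the same signs and 5 of them an adjusted p below 0.05 (edgeR).

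**Figure D2:**
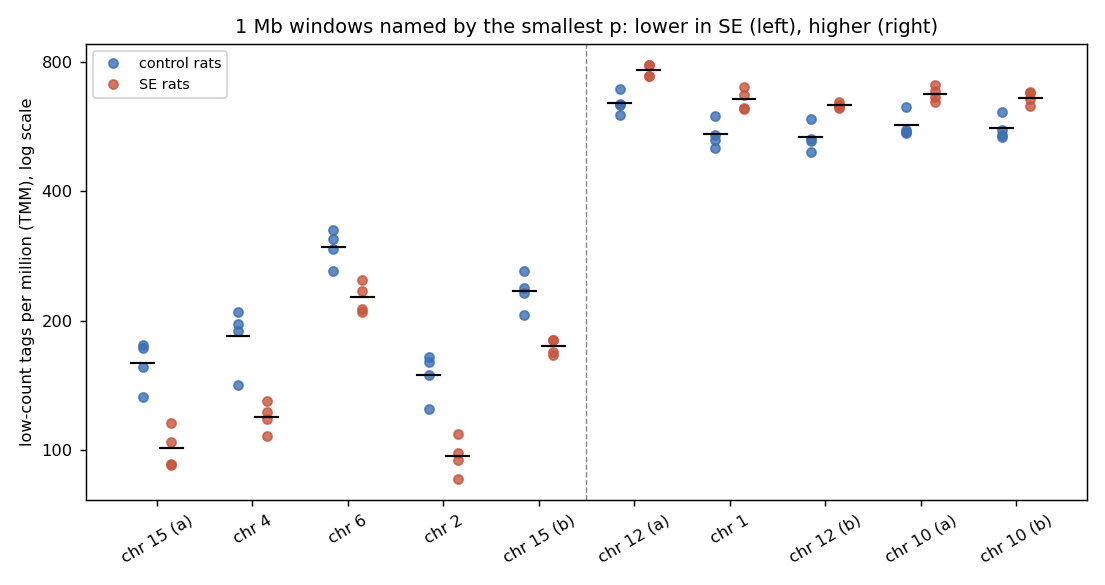
Low-count CPM after TMM, on a log scale, in the 10 windows of 1 Mb with the smallest p, 5 lower in SE rats left of the dashed line and 5 higher to the right. Points are rats, with control rats in blue and SE rats in red, and black lines are group means (n = 4). SE and control rats do not overlap in any of the 10, a condition of the rule that chose them.

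A window outside that rule, singled out after its values were seen, had the largest fold change. On chromosome 6 from 139000001 to 140000000 the log2 fold change was -1.02 (standard error 0.36; edgeR, adjusted p = 0.0353). Control rats 1, 3, 4 and 5 had 35.7, 205, 41.7 and 182 low-count CPM and SE rats 6, 8, 9 and 10 had 44.0, 114, 36.5 and 38.3. The values of 2 of the 4 control rats and 3 of the 4 SE rats lay between 35.7 and 44.0, so the groups overlapped. Control rats 3 and 5 were far higher, and SE rat 8 at 114 lay between these levels.

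The direction of a window followed the number of regions around it. When windows were divided into 4 classes by the number of regions of the table they held, the sparsest class (5 to 113 regions per Mb, 644 windows) had a median log2 fold change of -0.21, with 210 windows lower and 0 higher in SE rats. The next class (114 to 212 regions) had a median of -0.061, with 117 lower and 15 higher. In the third class (213 to 315 regions) the median was 0.036, with 24 lower and 96 higher. The densest class (316 to 580 regions, 640 windows) had a median of 0.096, with 0 lower and 267 higher. Across windows the correlation of the log2 fold change with the log2 number of regions was 0.721 (Pearson) and the rank correlation was 0.764, as a description, since windows share the same 8 libraries and are not replicates.

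**Figure D3:**
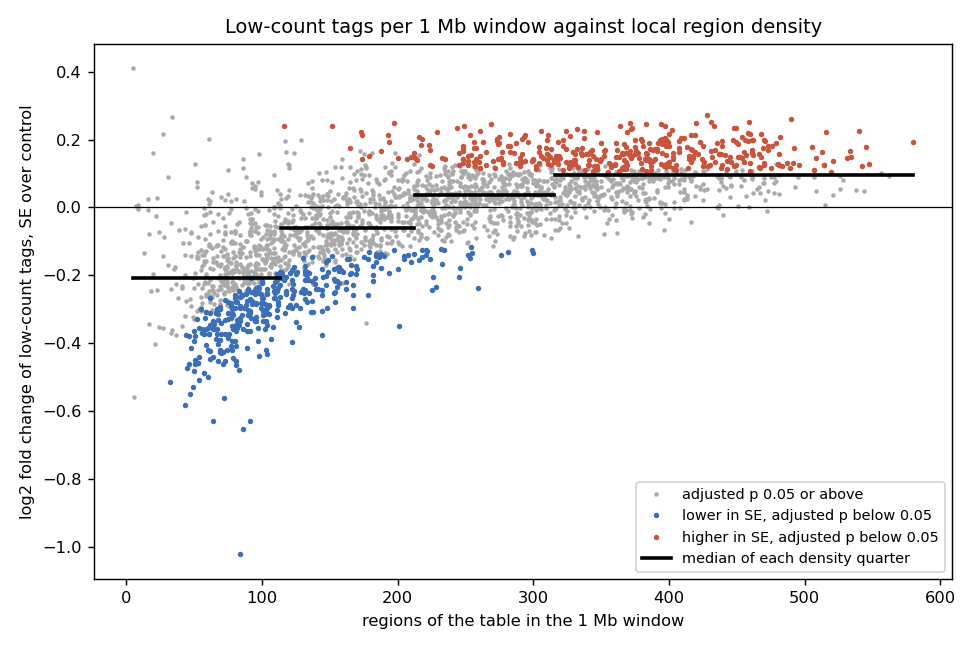
Log2 fold change of low-count tags, SE over control, against the number of regions of the table in the window, for 2566 windows of 1 Mb. Blue and red points passed an adjusted p of 0.05 and black bars are the medians of the 4 density classes, which run from -0.21 in the sparsest to 0.096 in the densest.

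The same relation can be written rat by rat as a slope. The slopes come from the same window counts and were not a planned comparison. They restate the relation and are no separate support for it. The slope of a library's low-count tags per window, on the log2 scale and relative to the mean of the 8 libraries, on the log2 number of regions was 0.012, -0.047, -0.12 and -0.075 in control rats 1, 3, 4 and 5. In SE rats 6, 8, 9 and 10 it was 0.039, 0.030, 0.065 and 0.095. A positive slope means relatively more tags where regions are dense. All 4 SE rats were above the control rats, with means of 0.057 ± 0.029 and -0.057 ± 0.055 (SD, n = 4 each; p = 0.0286 in a two-sided exact permutation test, 0.0429 after adjustment over 3 library measures). The slope of high-count tags gave the same order of the groups and the same p in that exact permutation test. With offsets that remove each library's trend on density, 207 windows were called, 105 lower and 102 higher, of which 143 were among the 729 and had the same sign, and all 10 named windows had an adjusted p below 0.05 (edgeR). Their fold changes shrank, to between 0.13 and 0.17 in the 5 that rose and to between -0.49 and -0.29 in the 5 that fell. These 10 windows were chosen for a small p in the same 8 libraries, so their calls here are no separate support. The part of CpG density or of fragment capture in the relation was not tested.

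High-count tags in the same windows gave a like picture with more calls. Of 2570 windows 1122 (43.7%) had an adjusted p below 0.05 (edgeR), 571 lower and 551 higher, from a median of 11103 tags per window. Of the 729 low-count windows called, 573 were called in the high-count tags too, all 573 in the same direction, so that 156 windows were called on low-count tags only and 549 on high-count tags only. Both sets of tags come from the same 8 libraries, so this overlap is no independent repeat of the comparison.

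Whether low-count and high-count tags moved by different amounts was tested on the log2 ratio of the 2 in each window, centred on each rat's median and fitted with limma. At an adjusted p below 0.05, 0 of 2566 windows (0%) differed. An unadjusted p below 0.01 was reached by 40 windows (1.56%), 31 higher and 9 lower, and an unadjusted p below 0.05 by 149. That split depended on the centring and on single rats, with 18 higher and 21 lower without centring and 19 higher and 15 lower without SE rat 10. Before centring, the median log2 ratio over windows was -1.10 ± 0.013 in control and -1.11 ± 0.016 in SE rats (SD, n = 4 each; exact permutation test, p = 0.2).

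The largest ratio difference lay on chromosome 1 from 215000001 to 216000000, where the log2 ratio of low-count to high-count tags was -2.86, -3.07, -3.71 and -3.08 in control rats and -2.75, -1.39, -1.37 and -1.13 in SE rats. SE rat 6 was close to the control rats and the other 3 SE rats were well above them. The difference was 1.52 with a standard error of 0.31 (limma, adjusted p = 0.412). Without SE rat 6 it was 1.89 and passed (adjusted p = 0.0024), the only ratio window to do so when 1 rat was left out. High-count tags of this window had a log2 fold change of -1.66 (edgeR, adjusted p = 0.00378), while its low-count tags had -0.21 and did not pass (adjusted p = 0.113). The other ratio windows with the smallest p were chromosome 11 from 47000001 to 48000000 and chromosome 20 from 25000001 to 26000000, with differences of 0.27 and 0.26, and chromosomes 1 from 141000001 to 142000000, 5 from 114000001 to 115000000 and 15 from 78000001 to 79000000, with -0.41, -0.31 and -0.33. None of these passed an adjusted p of 0.05 (limma, 0.412 to 0.584).

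Summed over whole autosomes, low-count tags differed between the groups on 13 of 20 at an adjusted p below 0.05 (edgeR), 3 lower and 10 higher in SE rats. The differences were smaller than in single windows. Chromosome 12 rose most, from 26297 ± 1230 low-count CPM in control to 28772 ± 623 in SE rats (SD, n = 4 each), which is a log2 fold change of 0.13 (standard error 0.032) (adjusted p = 0.00940). Control rats 1, 3, 4 and 5 had 27951, 26348, 25028 and 25861 on it and SE rats 6, 8, 9 and 10 had 28575, 28052, 28925 and 29536. The groups did not overlap, by 27951 in control rat 1 against 28052 in SE rat 8.

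Chromosome 10 followed with a log2 fold change of 0.085 and a standard error of 0.021, and chromosome 1 had 0.045 and chromosome 5 0.030. Chromosome 2 fell most, by 0.037 on the log2 scale with a standard error of 0.0091. Chromosome 15 had the smallest p, with 39647, 40038, 39953 and 40195 low-count CPM in control rats and 39238, 39342, 39318 and 39334 in SE rats. This is a log2 fold change of -0.024 (standard error 0.0052; edgeR, adjusted p = 0.00940), and no rat overlapped the other group. The third chromosome that fell was 11.

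The share of windows called higher in SE rats was largest on chromosomes 12, 10 and 19. On chromosome 12, with a median of 403 regions per Mb, 24 of 47 windows (51.1%) were higher and 0 lower. Chromosome 10, with a median of 310, had 44 windows higher (39.6%) and 4 lower of 111, and chromosome 19, with 326, had 21 higher (35%) and 4 lower of 60. On chromosome 11, with a median of 167.5 regions per Mb, 27 of 88 windows were lower and 7 higher, and on chromosome 2, with 159, 54 of 259 were lower and 6 higher. Directions per chromosome are relative to the other chromosomes and moved with the scaling. With all 10 libraries 0 chromosomes were lower and 8 higher, with adjusted p of 0.0698 for chromosome 2 and 0.546 for chromosome 15 (log2 fold change -0.0077; edgeR). With density offsets chromosomes 12 and 10 shrank to 0.038 and 0.036, and with upper-quartile scaling to 0.065 and 0.020, the latter not called (adjusted p = 0.112). With density offsets 6 chromosomes were lower and 5 higher, and with low-count totals without TMM 7 and 5. With library totals over all autosomal tags in place of TMM, 10 chromosomes were lower and 3 higher and chromosome 5 turned to -0.014, and with upper-quartile scaling 14 were lower and 1 higher and chromosomes 1 and 5 turned to -0.020 and -0.036.

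**Figure D4:**
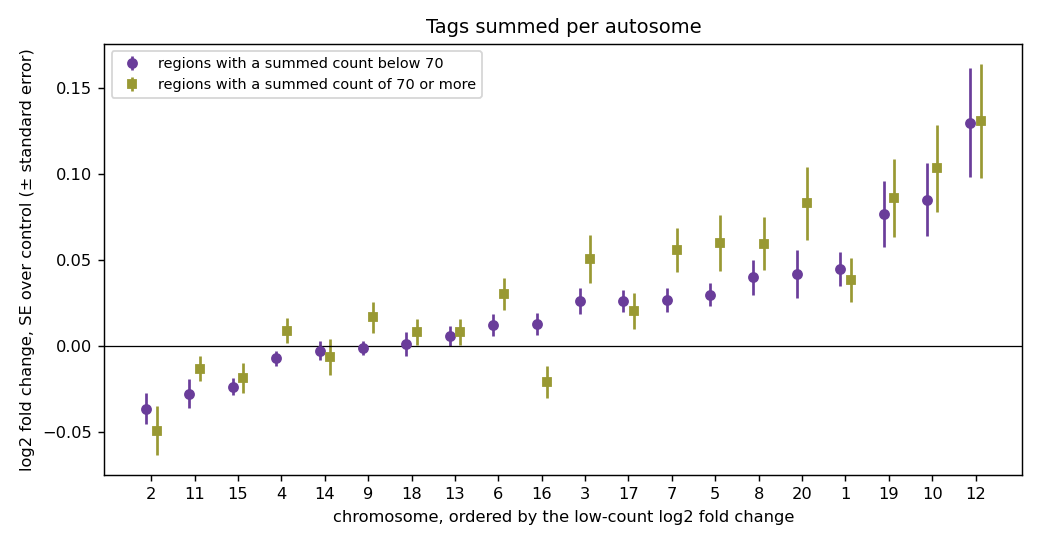
Log2 fold change, SE over control, of tags summed per autosome for low-count regions (circles) and high-count regions (squares), with standard errors from edgeR. Chromosome 12 is highest, at 0.13 in both, and chromosome 2 lowest in both.

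A list of 34 regions that the study ties to genes was used to look at low-count tags near genes of interest. The study chose them on these samples for a difference between the groups, which makes them no independent evidence of direction, and all 34 were found in the table with a summed count of 80 or more, so none is a low-count region itself. They fell in 31 windows, which held 4731 low-count regions. At an adjusted p below 0.05 (edgeR) 16 of the 31 windows were called, 15 higher and 1 lower in SE rats, where 28.4% of all windows were called. The median log2 fold change of the 31 was 0.11, against -0.002 over all windows. Of these windows 19 were in the densest of the 4 density classes and 1 in the sparsest, and with the density offsets 2 of the 16 were called.

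**Figure D5:**
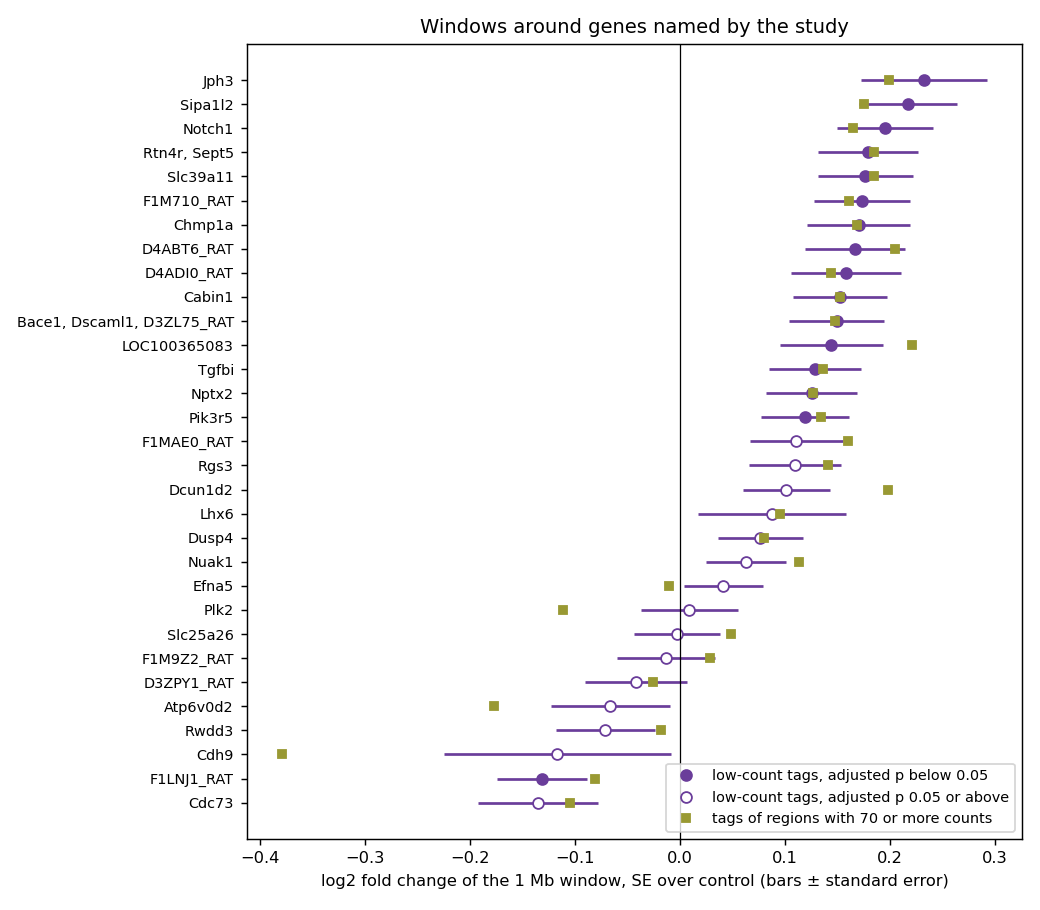
Log2 fold change of low-count tags, SE over control, in the 31 windows of 1 Mb around genes that the study names, with standard errors (circles, filled where the adjusted p is below 0.05), beside that of high-count tags (squares). Jph3 is highest at 0.23.

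Among genes that the study links to both expression and methylation, 5 of 8 windows were higher in SE rats. Over all windows 14.7% were called higher, and in the densest class 267 of 640 were. The window of Jph3, which encodes a junctophilin that ties the endoplasmic reticulum to the plasma membrane in neurons, lies on chromosome 19 from 51000001 to 52000000 and held 81 low-count regions. Control rats 1, 3, 4 and 5 had 328, 265, 265 and 301 low-count CPM and SE rats 6, 8, 9 and 10 had 330, 344, 336 and 353. The groups did not overlap, though control rat 1 at 327.6 was close to SE rat 6 at 329.5, and the log2 fold change was 0.23 (standard error 0.060; edgeR, adjusted p = 0.00791).

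Sipa1l2 belongs to a family of GTPase-activating proteins of Rap. Its window, on chromosome 19 from 55000001 to 56000000, had 712, 634, 616 and 590 in control and 737, 708, 747 and 768 in SE rats. SE rat 8 was just below control rat 1, and the log2 fold change was 0.22 (standard error 0.047; edgeR, adjusted p = 0.00304). Nptx2 encodes a neuronal pentraxin, a secreted protein that gathers AMPA receptors at excitatory synapses. Its window, on chromosome 12 from 10000001 to 11000000, rose from 781 ± 49.8 to 853 ± 35.3 (SD, n = 4 each), a log2 fold change of 0.13 (edgeR, adjusted p = 0.0324), which turned to -0.012 with the density offsets. The windows of Tgfbi, a secreted protein of the extracellular matrix, and of F1M710_RAT rose by 0.13 and 0.17.

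The other 3 windows of this list did not pass. Dusp4, a phosphatase of MAP kinases, had a log2 fold change of 0.077 (edgeR, adjusted p = 0.146). For Plk2, a kinase known for homeostatic control of synapses, low-count tags were 360 ± 11.1 in control and 362 ± 5.87 in SE rats, which gave a log2 fold change of 0.0093 (standard error 0.047.) For Cdh9, a cadherin of cell adhesion, the window on chromosome 2 from 66000001 to 67000000 was sparse, with 71 regions. There the low-count tags had a log2 fold change of -0.12 (edgeR, adjusted p = 0.421) and the high-count tags -0.38 (adjusted p = 0.0103).

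In windows of regions listed as shared with the traumatic brain injury model 7 of 15 were called, all 7 higher, and in those listed as shared with the pilocarpine model 5 of 9 were called, 4 higher and 1 lower. Over all windows 28.4% were called, 14.7% higher and 13.7% lower. In the densest class 267 of 640 windows were higher and 0 lower. Rtn4r, the Nogo receptor that limits axon growth, and Sept5, a septin of nerve terminals, lie in 1 window of chromosome 11 that belongs to both lists. Its log2 fold change was 0.18 (standard error 0.048; edgeR, adjusted p = 0.00880). Other windows that rose were those of Notch1, a receptor of cell fate decisions, with 0.20, Slc39a11, a zinc transporter, with 0.18, Chmp1a, a component of the ESCRT-III complex, with 0.17, and Bace1, the beta-secretase that cleaves amyloid precursor protein, with 0.15. The window of F1LNJ1_RAT on chromosome 7 fell by 0.13 on the log2 scale, with 528, 534, 546 and 573 low-count CPM in control and 499, 498, 519 and 479 in SE rats. With all 10 libraries 0 of the 16 windows had an adjusted p below 0.05 (edgeR), and all 16 had the same sign.

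Single low-count regions were tested in a fit of the whole table without a filter, where 279908 of them had at least 1 tag. Of these, 3087 (1.10%) had an unadjusted p below 0.01 (quasi-likelihood test of edgeR), 2003 lower and 1084 higher in SE rats, against 1.38% of all regions of the table and 1.63% of the high-count regions. The share rose with the count, from 0.685% of regions with 1 to 9 tags, 0.790% with 10 to 29 and 0.946% with 30 to 49 to 1.28% with 50 to 69. A threshold of 0.01 passes about that fraction of regions where nothing differs. The classes up to 49 tags lay below this fraction, and the 1.10% of all low-count regions was near it. Above the limit it was 1.44% of regions with 70 to 99 tags and reached 3.03% in the class with the highest counts. With DESeq2's Wald test 539 low-count regions had an unadjusted p below 0.01, and with all 10 libraries edgeR found 1732, of which 729 were lower and 1003 higher.

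After adjustment over every region tested, 2 low-count regions had an adjusted p below 0.05, both lower in SE rats. The first lay on chromosome 1 of RN4 from 215570099 to 215570542, in the window with the largest ratio difference. It had 12, 9, 18 and 13 tags in control rats 1, 3, 4 and 5 and 2, 2, 2 and 1 in SE rats 6, 8, 9 and 10, a log2 fold change of -2.88 (standard error 0.51; edgeR, adjusted p = 0.00713). Discarded control rat 2 had 11 tags there and discarded SE rat 7 had 0, which puts each on the side of its group. The second lay on chromosome 4 from 43898527 to 43898968, with 18, 17, 11 and 11 tags in control and 2, 6, 1 and 0 in SE rats, and the log2 fold change came to -2.66 (standard error 0.50; edgeR, adjusted p = 0.0253). Control rat 2 had 0 tags in this region, like SE rat 7, and so went against its group. These 2 calls depended on single rats. The adjusted p (edgeR) of the region on chromosome 1 was 0.231 without SE rat 10 and 0.135 without control rat 4. That of the region on chromosome 4 was 0.654, 0.304, 0.168, 0.177 and 0.0586 without SE rat 10, 9 or 6 or control rat 3 or 1. With DESeq2 and with all 10 libraries in edgeR 0 low-count regions had an adjusted p below 0.05, and with 1 rat left out there were 1 to 7.

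The region with the smallest p among those higher in SE rats without overlap did not pass the adjustment. On chromosome 16 from 20039213 to 20039581 control rats had 4, 3, 2 and 3 tags and SE rats 13, 12, 15 and 14, a log2 fold change of 2.06 (standard error 0.45; edgeR, adjusted p = 0.210). Control rat 2 had 4 tags and SE rat 7 had 20. Next came chromosome 1 from 198923000 to 198923429, with 1.92 as log2 fold change, and chromosome 10 from 104964169 to 104964608, with 2.17. In both SE rat 7 had 0 tags, below control rat 2 with 18 and 7. The last of the 3 named lower regions, on chromosome 5 from 136858780 to 136859257, had 13, 19, 12 and 11 tags in control and 3, 5, 3 and 3 in SE rats (edgeR, adjusted p = 0.210). Counts of this size carry a counting error of the same order as the differences between rats of a group.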

How the data were processed

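Methyl-captured hippocampal DNA (MethylMiner) was sequenced with single reads of 36 bp. The authors aligned the tags to RN4 with BWA, called differences between all pairs of libraries with MACS, merged these regions with BEDTools, removed duplicate tags and deposited raw tag counts per region and library, without normalization. Pairwise calling selects regions that differ between some pair of rats.

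The rule for low-count regions and the gene list were chosen with earlier results of these data known. Counts of regions below 70 were summed in windows of 1 Mb and per autosome, windows with at least 80 counts were kept, and edgeR (4.0.16, R 4.3.3) with TMM and the quasi-likelihood F test was applied. Log2 ratios with a pseudocount of 0.5 were fitted with limma (3.58.1). Adjusted values are Benjamini-Hochberg over all windows, chromosomes or regions, with a threshold of 0.05. Shares and slopes were compared by exact two-sided permutation over 70 regroupings, and p-values measure the spread between rats, with 1 library each. Standard errors were the fold change over the square root of F.

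Windows were named where the groups did not overlap and the call passed, taking the 5 of smallest p per direction, regions likewise without overlap, 3 per direction, ratio windows 3 per direction, and named chromosomes at most 6 by p. Alternatives were each rat left out, all 10 libraries, other limits, scalings, window sizes and filters, DESeq2 (1.42.0), the exact test and density offsets. The fits were run on simulated counts with planted changes. The simulated libraries had no trend on region density, so this run cannot vouch for calls that follow that trend. No genome of RN4 was used, so windows carry no annotation other than the genes that the study ties to its regions, and no sequences are shown.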

Additional observations from a re-analysis of the deposited data

Results flagged for a closer look

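SE rat 7, marked as discarded and outside the comparisons, had a higher share of autosomal tags than every control rat in all low-count classes. It had 36.1% in all low-count regions, 0.0785% in regions with at most 9 tags, 3.27% with 10 to 29, 13.7% with 30 to 49 and 19.01% with 50 to 69. The classes were set on the counts of the rats used, without this rat.

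In 94 groups of 4 rats examined, 10 had a rat far from the other 3. The limit used gives about 1 in 20 for independent normal values. These groups share the same libraries and some hold tied small counts, so that rate does not apply to them. Control rat 1 was the highest control rat in 4 of them, with 628 low-count CPM in the window of chromosome 10 from 92000001, 606 in that of Notch1, 501 in that of Rtn4r and Sept5 and 746 in that of D4ADI0_RAT. Among SE rats the window of Chmp1a had 1 rat at 691, that of D4ADI0_RAT 1 rat at 654 and chromosome 2 had 1 rat at 81278. Among single regions, 1 SE rat had 1 tag in the region of chromosome 1 from 215570099 where the others had 2, 1 had 5 tags in that of chromosome 5 from 136858780 and 1 had 19 tags in that of chromosome 10 from 104964169.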

How the results depend on the processing

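No paired analysis was possible because no rat number is shared between the groups. The difference in share was -0.390 percentage points with all tags as denominator (exact permutation test, p = 0.0571), 1.55 with all 10 libraries, and -0.550 to -0.358 when 1 rat was left out. The 729 low-count windows became 18 with all 10 libraries, 207 with density offsets, 2 with a limit of 35, 269 of 522 with windows of 5 Mb and 298 to 1106 with 1 rat left out. Autosomal totals gave 532 lower and 183 higher windows, upper-quartile scaling 627 and 136, low-count totals without TMM 400 and 286. The median window then moved to -0.046, -0.068 and -0.023 on the log2 scale, and directions are relative to it. The 13 chromosomes became 8 with all 10 libraries (0 lower, 8 higher), 4 with a limit of 35 and 11 to 14 with 1 rat left out. The 1122 high-count windows became 0 with all 10 libraries, 467 with density offsets and 404 to 1561 with 1 rat left out. The 0 ratio windows became 1 without SE rat 6, that of chromosome 1 from 215000001. The 3087 single regions became 1732 with all 10 libraries, 539 with DESeq2 and 2762 to 3544 with 1 rat left out. Causes were not tested.

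Reversed signs among named items were -0.020 for chromosome 1 and -0.036 for chromosome 5 with upper-quartile scaling, -0.014 for chromosome 5 with autosomal totals, 0.49 and -0.15 for the ratio windows of chromosomes 1 (from 141000001) and 20 with all 10 libraries, -0.012 for Nptx2 and 0.076 for Cdh9 with density offsets, and 0.13 for Cdh9, -0.092 for Plk2 and -0.0075 for Bace1 with a limit of 35. Plk2, not called, also turned to -0.034 with autosomal totals, -0.011 with low-count totals, -0.057 with upper-quartile scaling, -0.0019 without SE rat 9 and between -0.012 and 0.021 over the rats left out.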
